A study of Mus musculus with 9 samples.

Results

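The cathepsins and legumain are proteases of the lysosome and the endosome, and 10 of their genes (Ctss, Lgmn, Ctse, Ctsz, Ctsb, Ctsd, Ctsl, Ctsh, Ctsc and Ctsk) were followed here through every array probe set annotated to them alone. These were 17 probe sets of the 12422 non-control probe sets on the array, for 10 of 8251 named genes. Total RNA came from whole, unirradiated skin of 5 Cd1d knockout mice (Cd1d -/-) and 4 wild-type mice (Cd1d +/+), and each mouse had its own Affymetrix MG-U74 array. Both groups were on the C57BL/6 inbred background and were matched for age and sex, although neither the ages nor the sexes are given. How the Cd1d allele was made is not given in the sources used here. Whole skin mixes epidermis, follicles, dermis, fat, muscle, vessels, blood and resident immune cells, so a signal is a sum over all of them, and fewer cells of a type cannot be told apart from less RNA per cell.

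These enzymes are made as inactive precursors and become active as the compartment acidifies. In antigen-presenting cells they cut engulfed proteins into peptides and take apart the invariant chain, the placeholder that guards the groove of MHC class II molecules. Cathepsin S (Ctss) does the last of these cuts in dendritic cells, B cells and macrophages, while cathepsin L (Ctsl) does it in thymic epithelium and, in mouse skin, is required for normal hair follicle cycling. Cathepsins also trim lipid-binding saposins and other helpers of the endosome, where CD1d, the product of the deleted gene, collects the lipids it shows to natural killer T cells. Cathepsin K (Ctsk) is best known for digesting collagen in bone and is also made by fibroblasts.

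The arrays were read as MAS5 signals, in arbitrary units, from a table of natural logarithms. The signal of each array had been brought to a common target, with a mean of 200.1 in every array after trimming 2% at each end. The targeted gene was checked first. Cd1d1 read 58.2, 65.0, 79.6, 47.6 and 51.1 in knockout 1 to 5, against 112.4, 101.1, 91.0 and 130.0 in wild type 1 to 4, and the groups did not overlap (log2 difference -0.86, SE 0.20, limma adjusted p = 0.242, exact permutation p = 0.0159). A probe set shared by Cd1d1 and Cd1d2 read 232.5, 266.2, 318.6, 209.9 and 276.8 in knockout 1 to 5. In wild type 1 to 4 it read 377.9, 281.6, 382.8 and 351.6. Here the groups overlapped, with knockout 3 above wild type 2 (log2 difference -0.42, SE 0.15, limma adjusted p = 0.442, exact permutation p = 0.0397). Whether the probes of either set lie within the deleted part is not known, so these residual signals are no check of the deletion itself. Of 18 listed epidermal keratinocyte markers 11 were bright enough to test, 3 with a lower and 8 with a higher value in the knockout, with a summed signal of 23893 to 36329 in knockout and 23770 to 25997 in wild-type mice. The defining basal keratins Krt14, Krt5 and Krt15 were not among them, since none of their probe sets read above 36.5 in any mouse. Hair follicle markers separated the knockout mice among themselves. The median of 20 such genes, in log2 units centred on the 9 arrays, was 0.92, 2.56 and 2.54 in knockout 1, 2 and 5 but -0.74 and -1.73 in knockout 3 and 4, against -0.78, -1.40, 0.02 and -0.72 in wild type 1 to 4.

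Of the 17 probe sets 16 were bright enough to test, which required a signal at or above the array's 40th percentile (43.4 to 53.3) in at least 4 arrays. Differences are knockout minus wild type on the log2 scale and were tested with limma over 7658 probe sets. No member passed an adjusted p of 0.05, and the lowest adjusted p among them was 0.311 (limma), with 0.0522% of all probe sets passing. The Ctse probe set 104696_at reached that level in 4 knockout mice and in no wild-type mouse, so it is described with no test. Over the other 15 probe sets 9 had a lower and 6 a higher value. At an unadjusted p under 0.05, limma gave 2 lower and 2 higher of these 15, where 3.96% of all probe sets were lower and 5.45% higher by that measure. The knockout and wild-type ranges did not overlap for 1 lower and 2 higher probe sets, against 1.38% and 1.83% of all probe sets. With 1 probe set per gene, the brightest, 7 of the 10 genes had a lower value in the knockout and 3 a higher one, with a median of -0.12 and 0 past the adjusted threshold, where 0.0342% of all genes passed. Among all 5855 genes tested, 48.7% had a lower value and the median was 0.01. At an unadjusted p under 0.05 limma picked out 2 members as lower, Ctss and Lgmn, where 3.84% of all genes were lower by that measure, and 1 as higher, Ctse, where 4.73% were higher. All 3 belong to the 4 genes grouped here as enzymes of antigen-presenting cells. They did not move in one direction, and the remaining gene of the group, Ctsz, was not picked out. The knockout and wild-type values did not overlap for Ctss, which was lower (1.47% of genes), and for Ctse, which was higher (1.66% of genes).

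**Figure D1:**
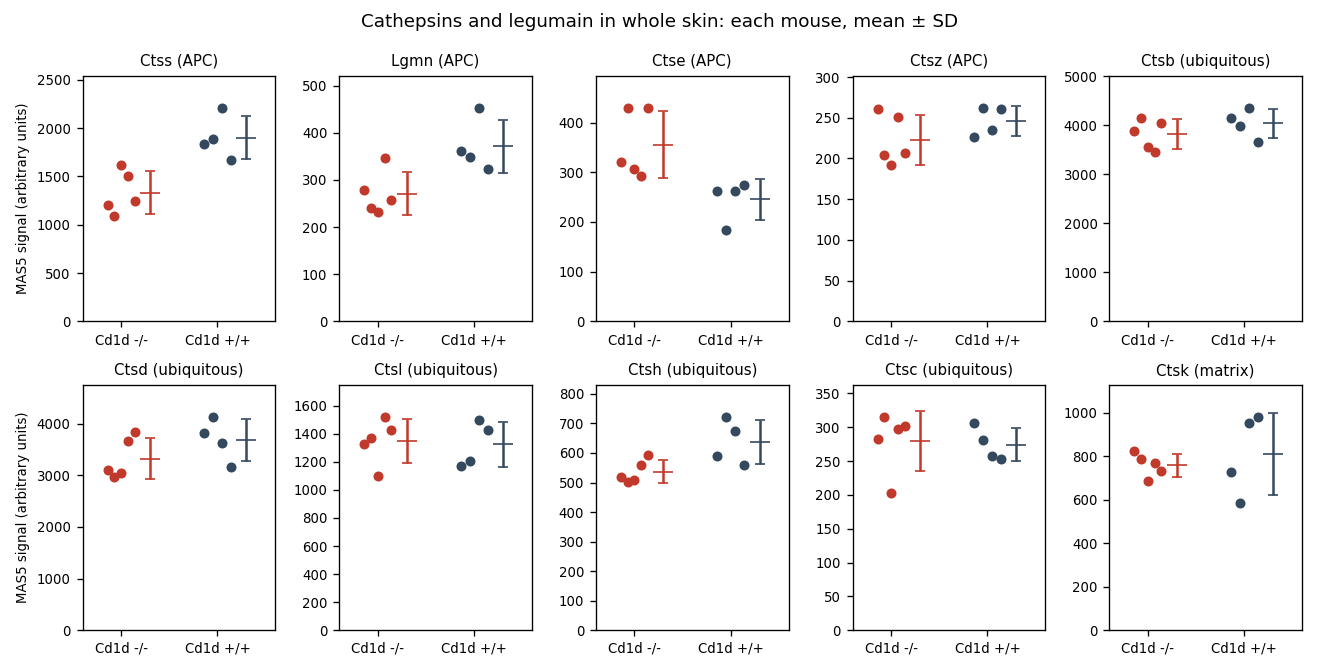
Signals of the 10 genes (1 panel each, brightest probe set, linear axes from 0, MAS5 units) in each Cd1d -/- mouse (red, left) and Cd1d +/+ mouse (dark, right), with the mean and SD beside the points. The 5 Ctss points of the knockout lie below the 4 wild-type points and the 5 Ctse points above them, while the groups overlap in the other 8 panels.

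Ctss, the invariant chain protease of antigen-presenting cells, was lower in every knockout mouse than in any wild-type mouse. It read 1201.8, 1093.5, 1616.1, 1508.3 and 1245.3 in knockout 1 to 5, against 1838.2, 1888.6, 2207.6 and 1670.5 in wild type 1 to 4. Knockout 3 was the highest of its group and wild type 4 the lowest of the other. Ctss was lowest in knockout 1, 2 and 5, the mice with follicle medians of 0.92, 2.56 and 2.54. It was higher in knockout 3 and 4, whose follicle medians were -0.74 and -1.73, but still below every wild-type mouse. Wild type 3, with the highest wild-type follicle median, 0.02, had the highest Ctss. Why the knockout mice differed among themselves was not tested. The means were 1333 ± 220 in knockout mice (SD, n = 5) and 1901 ± 225 in wild-type mice (SD, n = 4), so the knockout held 69.7% of the wild-type level on the log scale. The log2 difference was -0.52 (SE 0.14, 95% interval -0.82 to -0.22), with an exact permutation p of 0.0159 and a limma adjusted p of 0.336. The 5 genes whose signals followed that of Ctss most closely over the 9 arrays, among 5854 genes compared, were H2-Eb1 (Pearson r = 0.943), a class II chain, Cavin1 (0.934), a coat protein of caveolae, Vamp5 (0.926), a vesicle fusion protein, Spi1 (0.924), which encodes the myeloid transcription factor PU.1, and Ap2a2 (0.923), a subunit of the endocytic clathrin adaptor. They were picked as the highest of many, so these coefficients are a description and carry no p. With the group means taken out they ran from 0.764 to 0.867, and without knockout 2 and wild type 3, the arrays farthest from the Ctss median, from 0.854 to 0.926.

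The start of the Ctss gene is shown because the gene lies next to Ctsk, a member whose values did not separate by genotype, with 1 other annotated gene between them on chromosome 3. The windows are from RefSeq on GRCm38.p6, run from 250 bases before the start site to 50 after it, and are printed 5′ to 3′ along the gene. Capitals mark GAGGAA, the core that PU.1 binds, or its reverse complement TTCCTC.
Ctss, chr3:95526536-95526835, + strand: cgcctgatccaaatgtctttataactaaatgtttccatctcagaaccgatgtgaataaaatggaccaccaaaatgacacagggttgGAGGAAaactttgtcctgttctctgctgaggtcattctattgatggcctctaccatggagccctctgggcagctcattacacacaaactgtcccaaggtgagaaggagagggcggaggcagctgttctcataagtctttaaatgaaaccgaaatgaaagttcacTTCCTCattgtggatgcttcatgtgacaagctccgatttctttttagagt
Ctsk, chr3:95498960-95499259, + strand: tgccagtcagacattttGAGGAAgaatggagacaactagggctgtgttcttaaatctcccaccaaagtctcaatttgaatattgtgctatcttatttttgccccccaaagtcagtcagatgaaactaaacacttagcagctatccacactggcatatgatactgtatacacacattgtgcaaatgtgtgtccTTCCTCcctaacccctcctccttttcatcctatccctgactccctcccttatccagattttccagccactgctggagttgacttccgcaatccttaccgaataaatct
Each of these windows holds the core 2 times, once on each strand, and the Ctsc window, not shown, also holds it 2 times. In Ctss the motifs begin 164 bases before the start site and at base 1 of the transcript, and in Ctsk 233 and 58 bases before it. In the same source, 28.3% of 32817 windows of 300 bases hold this core at least once, so its presence is common, and a match is a description of the letters only.

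Lgmn encodes legumain, which cuts after asparagine, opens the processing of some antigens and clips the chains of other cathepsins. It read 278.3, 240.9, 231.8, 346.6 and 257.9 in knockout 1 to 5, against 361.2, 348.6, 452.8 and 323.6 in wild type 1 to 4. The groups overlapped through a single pair, since knockout 4 lay above wild type 4, and the other 4 knockout mice lay below every wild-type mouse. The means were 271 ± 45.8 in knockout mice (SD, n = 5) and 372 ± 56.4 in wild-type mice (SD, n = 4), a log2 difference of -0.46 (SE 0.15, 95% interval -0.79 to -0.12, exact permutation p = 0.0238, limma adjusted p = 0.413). Its signal followed that of Ctss with r = 0.795 over the 9 arrays, which placed it at rank 100 among the 5854 genes. The ubiquitous enzymes Ctsh (r = 0.715, rank 215) and Ctsd (0.504, rank 723) followed Ctss more closely than Ctsz did (0.285, rank 1520). Ctse ran against it (-0.804).

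Ctsz, an exopeptidase of monocytes and macrophages, was the other member of this group with a lower mean, but its mice overlapped widely. It read 260.9, 203.8, 192.2, 250.9 and 207.2 in knockout 1 to 5, against 226.2, 262.0, 235.3 and 260.8 in wild type 1 to 4. Knockout 2, 3 and 5 were below the wild-type range and knockout 1 and 4 inside it. The log2 difference was -0.15 (SE 0.13, 95% interval -0.44 to 0.14, exact permutation p = 0.183, limma adjusted p = 0.772).

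Ctse, an aspartic protease of dendritic cells and of surface epithelia, had higher values in the knockout, and its 3 probe sets did so by very different amounts. Probe set 104696_at read 155.5, 157.9, 88.9, 26.5 and 173.6 in knockout 1 to 5, against 4.2, 27.6, 39.6 and 23.8 in wild type 1 to 4. Knockout 4 stood among the wild-type mice, and the other 4 knockout mice were above all of them. All 4 wild-type signals were under the level required for testing, and the probe set entered the table only because 4 knockout mice reached that level. Its log2 difference of 2.46 is therefore a description with no usable baseline and no test. At a pseudocount of 64 it was 1.00, and without wild type 1 it was 1.76.

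Of the other probe sets of Ctse, 93860_i_at and 93861_f_at, the second carries a suffix by which Affymetrix marks probes that can also match other transcripts. Whether either set reads Ctse was not tested. The first read 351.3, 382.4, 314.2, 362.1 and 373.6 in knockout 1 to 5, against 257.9, 151.5, 234.4 and 267.3 in wild type 1 to 4. The second read 320.5, 429.2, 307.1, 291.8 and 428.7 in knockout mice, against 261.8, 183.5, 262.8 and 274.0 in wild-type mice. Both separated the groups, and knockout 4, low at 104696_at, was within the knockout range at the first and the lowest knockout at the second. Their log2 differences were 0.68 (SE 0.17, exact permutation p = 0.00794, the smallest these group sizes allow, limma adjusted p = 0.311) and 0.53 (SE 0.17, exact permutation p = 0.0159, limma adjusted p = 0.410).

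The level of Ctse at 104696_at moved with that of hair follicle genes among the knockout mice, being highest in knockout 1, 2 and 5, the mice with follicle medians of 0.92 or more, and lowest in knockout 4, which had the lowest follicle median. Knockout 3, with a follicle median of -0.74, read 88.9. Wild type 1 and 4, with similar follicle medians of -0.78 and -0.72, read only 4.2 and 23.8. Wild type 3, with a higher median of 0.02, read 39.6, and wild type 2, at -1.4, read 27.6. The link is thus a description of the knockout mice. Whether it holds in wild-type mice was not tested, since their signals were under the level required for testing. With the follicle median added to the model, the log2 differences at 93860_i_at and 93861_f_at were 0.59 and 0.32, against 0.68 and 0.53 without it. The hair follicle list had 20 of 34 genes bright enough to test, 19 of them with a higher value in the knockout. Among all genes tested 48.7% had a lower value. The follicle medians of knockout 3 and 4, -0.74 and -1.73, were not above the wild-type range of -1.4 to 0.02. The count is thus no shift shared by every knockout mouse. The summed signal of the list was 2618 to 41757 in knockout mice, against 2252 to 4892 in wild-type mice.

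**Figure D2:**
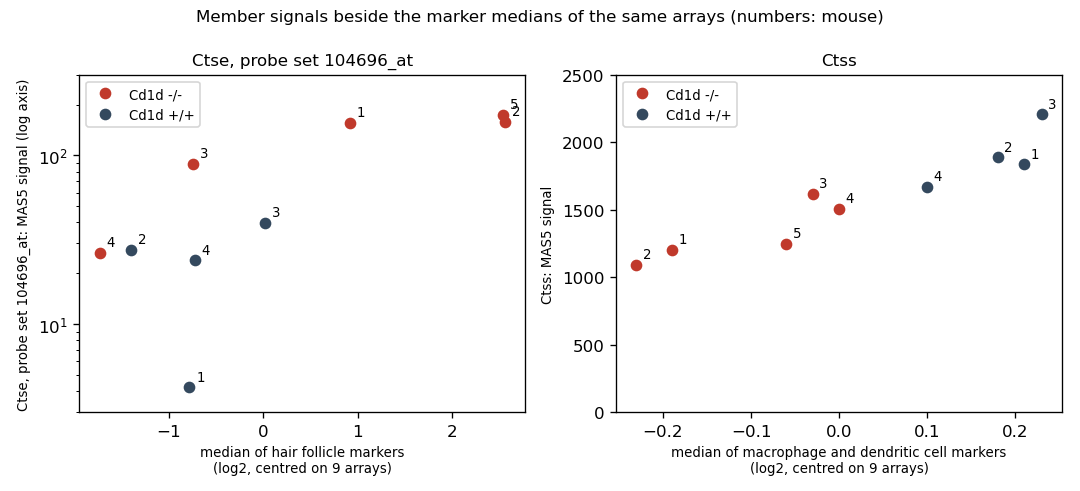
Left, signal of Ctse at probe set 104696_at (MAS5 units, log axis) against the hair follicle marker median of the same array (log2, centred), and right, signal of Ctss (linear axis from 0) against the macrophage and dendritic cell marker median, with red points for Cd1d -/- and dark points for Cd1d +/+ mice and the mouse number beside each. Knockout 4 has the lowest follicle median, -1.73, and a Ctse signal of 26.5, and the wild-type mice lie above the knockout mice on both axes of the Ctss panel.

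The ubiquitous enzymes Ctsb, Ctsd, Ctsl, Ctsh and Ctsc, which carry out bulk protein turnover in the lysosome, had a median log2 difference of -0.08 by their brightest probe sets, and the knockout and wild-type ranges overlapped for all 5. Ctsd, the main aspartic protease of the lysosome, read 3100.4, 2962.7, 3052.4, 3659.4 and 3831.2 in knockout 1 to 5, against 3821.8, 4126.4, 3619.8 and 3154.6 in wild type 1 to 4. Knockout 1, 2 and 3 were below the wild-type range and knockout 4 and 5 inside it (log2 -0.15, SE 0.12, 95% interval -0.40 to 0.10, limma adjusted p = 0.724).

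Ctsl, the endopeptidase needed for the hair cycle, read 1323.2, 1368.7, 1099.6, 1518.9 and 1423.0 in knockout 1 to 5, against 1168.8, 1205.6, 1497.8 and 1423.2 in wild type 1 to 4. The knockout range enclosed the wild-type one, and the log2 difference was 0.02 (SE 0.13, 95% interval -0.25 to 0.30, limma adjusted p = 0.971). Knockout 4, with the lowest follicle median of the 9 arrays, had the highest Ctsl signal, and knockout 3, also low in follicle genes, had the lowest. Ctsh, an aminopeptidase that is also made in white blood cells, had the lowest log2 difference of the 5 by the brightest probe set of each gene. It read 519.9, 501.0, 507.7, 560.6 and 593.2 in knockout 1 to 5, against 591.1, 721.6, 674.8 and 559.9 in wild type 1 to 4. Knockout 4 and 5 overlapped with wild type 1 and 4 (log2 -0.24, SE 0.12, 95% interval -0.50 to 0.02, exact permutation p = 0.0556, limma adjusted p = 0.561).

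Ctsb, an endopeptidase that also acts as a carboxypeptidase, was covered by 4 probe sets that did not point one way. The brightest, 94831_at, read 3876.2, 4150.5, 3560.5, 3449.8 and 4050.7 in knockout 1 to 5, against 4159.1, 3975.9, 4353.3 and 3666.7 in wild type 1 to 4 (log2 -0.08, SE 0.10, limma adjusted p = 0.817). Probe set 95608_at gave 0.10 and 92256_at gave -0.28, with limma adjusted p values of 0.850 and 0.645. The last, 162271_f_at, stayed between 5.4 and 27.1 in all 9 arrays, was too dim to test and is given no difference.

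Ctsc, the dipeptidyl peptidase that activates the serine proteases of granulocytes, mast cells and cytotoxic lymphocytes, had 3 probe sets. The brightest, 101019_at, read 281.8, 315.0, 203.5, 297.6 and 301.3 in knockout 1 to 5, against 306.6, 280.9, 257.1 and 252.4 in wild type 1 to 4. Its log2 difference was 0.02 (SE 0.15, limma adjusted p = 0.986) and that of 101020_at was 0.07 (limma adjusted p = 0.902). Probe set 161251_f_at, close to the level required for testing, gave -0.38 (SE 0.30, limma adjusted p = 0.730). Knockout 3 was the lowest of the 9 mice at 101019_at and at 161251_f_at (23.7).

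The window at the start of Ctsd is shown because, among the members with a window, it alone held the E-box CACGTG more than once, the letters at the centre of the element through which TFEB acts on lysosomal genes. Lgmn has 2 windows, and the one shown is the one that holds this E-box. Capitals mark CACGTG, which reads the same on both strands.
Ctsd, chr7:142387778-142388077, - strand: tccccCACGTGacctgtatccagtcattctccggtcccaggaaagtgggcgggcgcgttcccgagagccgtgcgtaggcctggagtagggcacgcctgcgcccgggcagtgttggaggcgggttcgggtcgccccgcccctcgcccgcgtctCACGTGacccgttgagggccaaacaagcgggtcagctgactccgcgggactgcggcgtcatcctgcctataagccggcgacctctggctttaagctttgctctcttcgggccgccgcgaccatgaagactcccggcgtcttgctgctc
Lgmn, chr12:102439043-102439342, - strand: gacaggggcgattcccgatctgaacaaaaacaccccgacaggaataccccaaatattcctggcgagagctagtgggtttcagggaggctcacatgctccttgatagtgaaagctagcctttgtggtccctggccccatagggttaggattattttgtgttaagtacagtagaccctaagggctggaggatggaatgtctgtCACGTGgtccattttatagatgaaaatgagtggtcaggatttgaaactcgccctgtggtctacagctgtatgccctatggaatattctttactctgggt
The E-box begins 245 and 98 bases before the start site in Ctsd and 49 bases before it in the Lgmn window. Ctsl holds 1 as well, and 7.15% of all windows of this length hold it. Windows were found for 7 of the 10 members, and Ctsb, Ctsh and Ctse were not among them. The log2 differences of these members were -0.46 for Lgmn, -0.15 for Ctsd and 0.02 for Ctsl.

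Ctsk, the collagen-degrading member, read 823.9, 786.2, 685.4, 769.2 and 735.0 in knockout 1 to 5, against 730.1, 586.3, 954.6 and 981.5 in wild type 1 to 4. All 5 knockout mice lay within the wild-type range, whose ends were wild type 2 and wild type 4. The means were 760 ± 52.5 in knockout mice (SD, n = 5) and 813 ± 189 in wild-type mice (SD, n = 4), a log2 difference of -0.07 (SE 0.16, 95% interval -0.41 to 0.27, exact permutation p = 0.706, limma adjusted p = 0.921). The list of fibroblast and dermal matrix genes had 17 of 20 members tested, 4 with a lower value and 13 with a higher one and a median of 0.13.

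**Figure D3:**
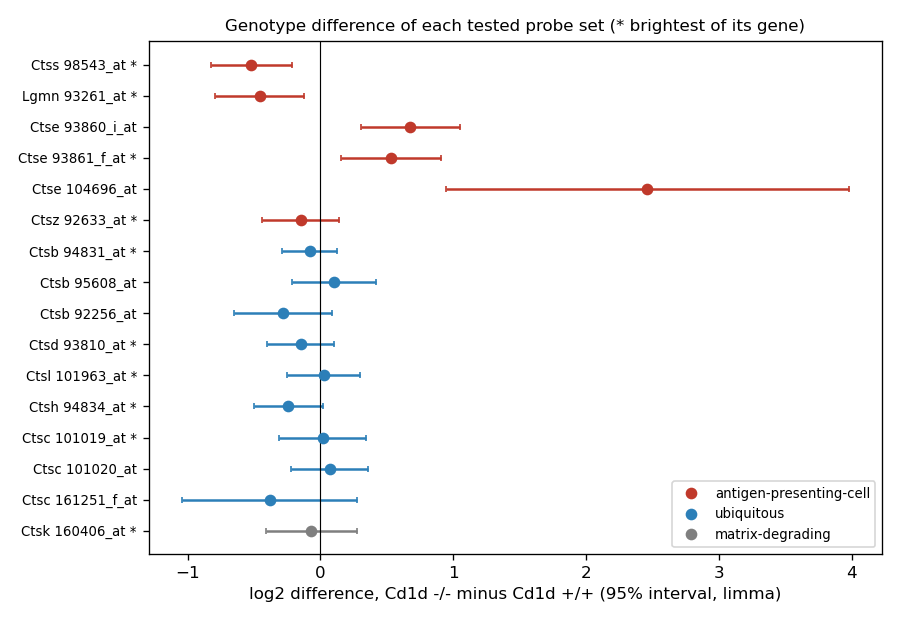
Log2 difference, Cd1d -/- minus Cd1d +/+, with its 95% interval from limma for the 16 probe sets kept by the filter. Colours show the role and a star marks the brightest probe set of each gene. The wide interval drawn for 104696_at is no test, since its wild-type signals were all under the level for testing. The intervals of Ctss, Lgmn and the other Ctse probe sets leave out 0 before adjustment for the 7658 tests. Those of the 11 probe sets of other genes include 0.

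Whether Ctss differed from the other classes of enzyme was asked within each array, by the log2 ratio of Ctss to Ctsb, Ctsd, Ctsl and Ctsk of the same mouse. The ratio to Ctsl was -0.14, -0.32, 0.56, -0.01 and -0.19 in knockout 1 to 5, against 0.65, 0.65, 0.56 and 0.23 in wild type 1 to 4. Knockout 3 was within the wild-type range and the other 4 knockout mice were below it. The knockout minus wild-type difference of this ratio was -0.54, and it was -0.44 for Ctsb, -0.37 for Ctsd and -0.45 for Ctsk. Exact permutation tests gave adjusted p values of 0.0741 for Ctsb, Ctsd and Ctsl and 0.0952 for Ctsk over the 4 ratios, so none passed 0.05. Knockout 3 had the highest Ctss of the knockout mice and their highest value in each of the 4 ratios. Leaving it out therefore widens each difference by construction. Without it, the ratios to Ctsb, Ctsd and Ctsl were -0.54, -0.47 and -0.69 (exact permutation, adjusted p = 0.0381 each). These 3 ratios share the same Ctss values, so they are not separate results, and with all mice included none passed. None of the 4 ratios passed under the other alternatives run, with exact permutation adjusted p values of up to 0.214.

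**Figure D4:**
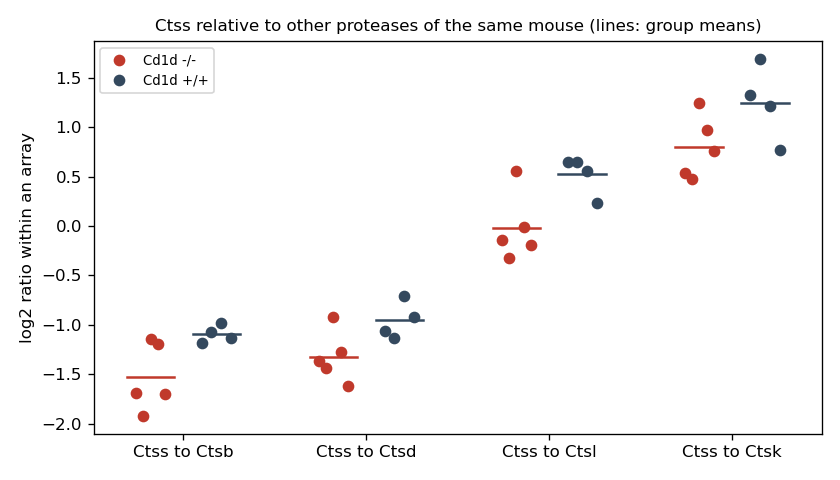
Log2 ratio of Ctss to Ctsb, Ctsd, Ctsl and Ctsk within each array, for Cd1d -/- (red, left of each pair) and Cd1d +/+ mice (dark, right), with lines at the group means. The knockout mean is lower for each of the 4 ratios, by 0.37 to 0.54, and the highest knockout value lies inside the wild-type range each time.

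The genes that share the endosomal pathway with these proteases were described through lists. The MHC class II list, the chains and editors that Ctss serves, had 10 of 12 genes tested. All 10 had a lower value, where 48.7% of all genes did, with a median of -0.41, and 0 passed limma's adjusted threshold. At an unadjusted p under 0.05 limma gave 4 as lower, against 3.84% of all genes tested. H2-Eb1 read 2563 ± 533 in knockout and 3689 ± 337 in wild-type mice (log2 -0.54), the peptide editor subunit H2-DMa 896 ± 138 and 1213 ± 135 (-0.44), and the chain H2-Aa 3520 ± 833 and 4557 ± 552 (-0.40), with limma adjusted p values of 0.336, 0.370 and 0.505. The class II median of knockout 3, 0.21 in centred log2 units, was inside the wild-type range of 0.03 to 0.41, and this was also the knockout mouse with the highest Ctss.

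Macrophage and dendritic cell markers moved with Ctss and Lgmn, and they were not the only cell type markers with lower values in the knockout. Of 36 listed genes 25 were tested, and all 25 had a lower value in the knockout, where 48.7% of all genes did. Their median was -0.32 and 0 passed limma's adjusted threshold. At an unadjusted p under 0.05 limma gave 11 as lower, against 3.84% of all genes tested. The summed signal of the 25 markers was 12432 to 14981 in knockout mice, against 15426 to 17996 in wild-type mice, without overlap. Csf1r, through which macrophages receive their survival signal, read 1006 ± 110 in knockout and 1342 ± 154 in wild-type mice (log2 -0.41), and Laptm5, a lysosomal membrane protein of white blood cells, read 1047 ± 143 and 1344 ± 122 (-0.37). Coro1a, an actin-binding protein of white blood cells, had a log2 difference of -0.48. The markers Ly75, Fcer1g, Clec4a2, Fcgr3 and Msr1 were on the array but too dim to test. With the median of these markers added to the model, the log2 difference of Ctss was 0.07 (SE 0.22) and that of Lgmn -0.12 (SE 0.31), with limma adjusted p values of 0.959 and 0.951, against -0.52 and -0.46 without it. This covariate itself separates the groups, from -0.23 to 0.00 in knockout and from 0.10 to 0.23 in wild-type mice, so its share and that of the genotype cannot be told apart. Endothelial markers had a lower value in 9 of 9 tested genes (median -0.17) and skeletal muscle markers in 14 of 15 (median -0.19). In either list 0 passed limma's adjusted threshold, and 1 and 3 were lower at an unadjusted p under 0.05, against 3.84% of all genes. Red cell genes also separated the groups: 4 of 9 listed genes were tested, and all 4 had a lower value. Of these, 2 (Hba-a1 and Hbb-b2, chains of haemoglobin) fell past limma's adjusted threshold, where 0.0342% of all genes passed. The summed red cell signal was 1356 to 2043 in knockout mice, against 3362 to 5093 in wild-type mice. The part of blood content in the Ctss and Lgmn values was not tested.

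Other proteins of the lysosome were covered by a list of enzymes and membrane proteins. Of its 70 genes 44 were tested, 29 with a lower and 15 with a higher value, a median of -0.06 and 0 past limma's adjusted threshold. At an unadjusted p under 0.05 limma gave 7 lower and 1 higher, against 3.84% and 4.73% of all genes tested. The groups did not overlap for 5 of the 44, all lower in the knockout, against 1.47% of all genes. The smallest p values were those of Atp6ap1, an accessory subunit of the proton pump (459 ± 17.5 in knockout and 581 ± 67.4 in wild-type mice, log2 -0.33), Laptm4a, a membrane protein (3818 ± 267 and 4699 ± 627, -0.29), and Hexa, which trims gangliosides (405 ± 85.2 and 525 ± 40.5, -0.39), with limma adjusted p values of 0.417, 0.441 and 0.461.

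Of 13 further cathepsins only Ctsa and Ctsf were bright enough to test. Ctsa, a carboxypeptidase that protects other lysosomal enzymes, read 518 ± 48.9 in knockout and 598 ± 71.7 in wild-type mice (log2 -0.20, limma adjusted p = 0.648), and Ctsf, an endopeptidase, had a log2 difference of -0.07. Ctsg, Ctsw and Cts7 were on the array but too dim to test. Of 23 listed inhibitors 5 were tested, all with a lower value, a median of -0.11 and 0 past either threshold. Cst3, the secreted inhibitor cystatin C, read 5020 ± 843 in knockout and 5292 ± 702 in wild-type mice (log2 -0.08), Serpinb6a, an intracellular serpin, had a log2 difference of -0.15, and the invariant chain Cd74, which stands in the class II list too and whose longer form inhibits cathepsin L, one of -0.21.

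Deposited values have 7 decimals in 5 arrays (knockout 1 and 2, wild type 2 to 4) and 9 in the other 4, and what this marks is not given. Within the arrays with 7 decimals the log2 difference was -0.74 for Ctss, -0.52 for Lgmn and 0.79 for Ctse at 93860_i_at (limma adjusted p = 0.229, 0.430 and 0.355). Within those with 9 decimals, which hold 1 wild-type mouse, assumed to vary like the others, it was -0.34, -0.40 and 0.44 (limma adjusted p = 0.998 each).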

How the data were processed

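RNA of each mouse was labelled as biotinylated cRNA and hybridised to 1 Affymetrix MG-U74 array, and signals come from the authors' run of Microarray Suite 5.0 (MAS5), per the labels' protocols. The deposited values are natural log signals: the exponential of every value is a whole multiple of 0.1, to within 0.000597. They were converted to log2 and not scaled again. Detection calls were not used here, so the level at which a probe set exceeds its background is unknown, and precision is limited by how many mice there were. Symbols came from the platform annotation, where 10833 probe sets have 1 gene, 396 several and 1193 none, and 10817 were updated through the Entrez identifier to GRCm38.p6. Control probe sets (66) and those below the filter were left out. Of 12488 values per array 1 was missing, in knockout 1, at a probe set that was not tested.

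Groups were compared in R 4.3.3 with limma 3.58.1 (lmFit, eBayes with trend). Tests were two-sided and p values were adjusted by Benjamini-Hochberg across 7658 probe sets. Exact permutation tests were two-sided over 126 arrangements of 5 and 4 arrays, with a smallest p of 0.00794. Each gene is read in lists by its brightest tested probe set, and list genes exclude the 10 members. On simulated arrays with 7658 probe sets and 200 changed in each of 20 runs, the procedure recovered 27.2% of changes of 1.5-fold, 69.5% of 2-fold and 95.1% of 4-fold, with 4.49% false calls. The members, lists and tests were chosen with earlier results of these data known. Named were all members, Cd1d1 with the probe set it shares with Cd1d2, the 3 genes with the smallest p of the pathway, class II and macrophage lists, and the 5 genes most like Ctss. Other marker lists are given by counts, with only Tpsb2, Hba-a1, Hbb-b2 and the dim basal keratins named from them after their values were seen. Alternatives were other scalings, filters, pseudocounts of 16 and 64, models, covariates, blocks and arrays left out. Replicate numbers were not treated as pairs in the main tests.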

Additional observations from a re-analysis of the deposited data

Results flagged for a closer look

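In wild type 2 the Ctse probe set 93861_f_at read 183.5, far below the other wild-type mice, which lay between 261.8 and 274.0. Its gap to the nearest of them was 0.865 of the group's whole range, above Dixon's 95% limit for 4 samples. This was 1 of 34 groups of values examined, and chance alone gives about 1 in 20. Wild type 2 was also the lowest wild-type mouse at 93860_i_at (151.5), but not at 104696_at (27.6), and without it the log2 differences at 93861_f_at, 93860_i_at and 104696_at were 0.40, 0.49 and 2.66. The part of this array in the Ctse values was not tested further.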

How the results depend on the processing

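No tested member probe set passed limma's adjusted p of 0.05 under any alternative that was run, and the lowest adjusted p reached, leaving out Ctse at 104696_at, was 0.118, for Ctss with array weights. Lgmn, Ctsh, Ctsz, the Ctse probe sets, Ctsb at 95608_at and Cd1d1 kept their direction throughout, and the count of lower members ran from 7 to 9 of 10, with a median from -0.16 to -0.08. All other tested member probe sets changed sign under some alternative. These were not only those near 0 but also Ctss, Ctsd, Ctsb at 92256_at and Ctsc at 161251_f_at. Ctsl gave -0.02 with median centring, -0.03 with array weights and within 7 decimals, -0.01 with the follicle covariate and -0.02 with the macrophage covariate. Ctsc at 101019_at gave -0.03, -0.01 with the replicate block, -0.22 within 9 decimals, -0.06 and -0.17 with these covariates, median centring being the first. Within 7 decimals Ctsb at 94831_at gave 0.01 and Ctsc at 161251_f_at 0.07, and within 9 decimals Ctsb at 92256_at gave 0.18 and Ctsc at 101020_at -0.09. With the macrophage covariate Ctss gave 0.07 and Ctsd 0.18. With 1 mouse left out, the ranges were -0.03 to 0.10 for Ctsl, -0.03 to 0.13 for Ctsc at 101019_at, -0.01 to 0.12 at 101020_at, -0.22 to 0.03 for Ctsk, and -0.59 to -0.45 for Ctss. The ratios of Ctss then ran from -0.54 to -0.34 for Ctsb, -0.47 to -0.29 for Ctsd, -0.69 to -0.47 for Ctsl and -0.61 to -0.30 for Ctsk. The count of probe sets past the threshold, 4, was 7 at pseudocount 64, 9 with array weights, 10 within 7 decimals, 0 within 9 decimals, 0 with the macrophage covariate, 1 with the replicate block and 4 to 8 with 1 mouse left out; the causes were not tested. Deviations of mice with the same number correlated at 0.11, -0.01, -0.05 and 0.02 for numbers 1 to 4. Such values show no sign of pairing by number but cannot exclude it. Under the replicate block no member was called (Ctss -0.50, limma adjusted p = 0.491). Probe sets with shared sequence left out, an alternative chosen after seeing the data, also gave 7 lower members. Cd1d1 and 2 dim member probe sets, Ctse at 104696_at and Ctsc at 161251_f_at, were not measured with the filter at the 60th percentile.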

Other observations

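Other cell types of the skin were followed by marker lists, and no gene of these lists passed limma's adjusted threshold. Of the T, NK and B cell markers 6 of 25 were tested, 2 with a lower and 4 with a higher value in the knockout and a median of 0.05. Of the mast cell markers 4 of 11 were tested, 3 lower and 1 higher, with a median of -0.01. Of these 4 only the mast cell tryptase Tpsb2, named after its value was seen, had groups without overlap, against 1.47% of all genes that were lower in this way. It read 411 ± 49.5 in knockout and 622 ± 70.5 in wild-type mice (log2 -0.60, limma adjusted p = 0.204). The log2 differences of the other tested mast cell markers ran from -0.01 to 0.38. Granulocyte markers had 4 of 9 tested, 1 lower and 3 higher (median 0.35), adipocyte markers 9 of 11, 3 lower and 6 higher (0.13), and melanocyte markers 3 of 7, 1 lower and 2 higher (0.87).

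Ctss and Ctsk lie on chromosome 3, as does the targeted Cd1d1. On GRCm38.p6, 379 annotated genes lie between Cd1d1 and Ctss, of which 97 were tested, Ctsk included. Of these 59 had a lower and 38 a higher value in the knockout, with a median of -0.05, and 0 passed limma's adjusted threshold. At an unadjusted p under 0.05 limma gave 5 lower and 3 higher, against 3.84% and 4.73% of all genes tested. Over the 303 tested genes of the chromosome 147 were lower and 156 higher, with a median of 0.00, and 15 were lower and 21 higher at that p. The smallest p among the 97 was that of Prune1 (295 ± 29.7 in knockout and 445 ± 82.8 in wild-type mice, limma adjusted p = 0.311), named after its value was seen.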
